A study of Mus musculus with 43 samples.

Results

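Orexin and melanin-concentrating hormone (MCH) were followed here through the genes that encode their precursors, Hcrt (ENSMUSG00000045471) and Pmch (ENSMUSG00000035383). These 2 genes were taken by name from the 10127 genes of the expression table, and both were measured in all 41 libraries. The libraries were made from hypothalamic nuclei that had been laser-captured from 12 adult male mice. The dorsomedial hypothalamus (DMH) is the nucleus of interest here, and the arcuate (ARC), ventromedial (VMH) and paraventricular (PVN) nuclei serve for comparison. All the mice carried the paternal Snord116 deletion (Snord116+/-P, from B6(Cg)-Snord116tm1.1Uta/J, strain label C57/BL6), a congenital loss of a small nucleolar RNA cluster that is expressed from the paternal allele. No wild-type library was used, so no comparison concerns genotype. No Snord116 row was among the genes analysed, so the deletion could not be checked in these values. Before dissection, 6 of the mice had fasted for 24 hours and the other 6 had fed ad libitum. The DMH gave 5 fasted and 6 fed libraries, the ARC 4 and 5, the PVN 5 and 5, and the VMH 6 and 5, prepared in 3 capture and library batches. Each library is called by nucleus and mouse, such as DMH-86. Values are CPM, reads of a gene scaled to one common library total, and depth was 1.94 to 8.23 M reads (M, mega) per library.

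Orexin-A and orexin-B are cleaved from one precursor in neurons of the lateral hypothalamus, the perifornical area and the neighbouring DMH, and act on the receptors Hcrtr1 and Hcrtr2 to promote wakefulness and feeding. MCH is cleaved from the Pmch precursor in a separate population of lateral hypothalamic and zona incerta neurons, and in rodents acts on the receptor Mchr1. Both populations lie beside the DMH, and orexin neurons also lie partly within it. In bulk RNA of this kind, fewer cells of a type and less RNA per cell cannot be told apart.

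The coding stretches of the active peptides are shown because they locate the measured transcripts, and because the Pmch stretch lies where another gene is annotated on the opposite strand. In the GENCODE M21 annotation of GRCm38, Hcrt lies at chr11:100761069-100762931 on the minus strand and Pmch at chr10:88091072-88092375 on the plus strand. Each has 3 exons and 749 exonic bases. The Hcrt stretch is exonic, at chr11:100761890-100762090, and encodes orexin-A followed by orexin-B. The Pmch stretch is exonic, between chr10:88091868-88092186 without the intron, and encodes MCH at the end of the precursor. Capitals mark the codons of the amidation and cleavage signals.
Hcrt: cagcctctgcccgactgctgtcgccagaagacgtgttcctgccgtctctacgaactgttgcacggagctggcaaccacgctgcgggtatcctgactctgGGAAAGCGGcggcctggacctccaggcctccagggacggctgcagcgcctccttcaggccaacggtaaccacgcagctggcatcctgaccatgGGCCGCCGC
Pmch: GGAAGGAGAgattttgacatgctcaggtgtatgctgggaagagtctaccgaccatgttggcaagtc
The terminal exon of Parpbp, a gene named for a PARP1-binding protein, lies antisense at chr10:88091432-88093186. It covers exons 2 and 3 of Pmch (chr10:88091688-88091886 and chr10:88092140-88092375), that is 435 bases or 58.08% of the exonic length, and all 66 bases of the Pmch stretch. The nearest gene beside Hcrt, Kcnh4, is a potassium channel gene 1126 bases away and does not overlap it.

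In the DMH, the values read as if some reads of the Pmch locus had been divided between Pmch and Parpbp. When CPM were converted to reads with the depth of each library, Hcrt came out whole, within 0.1 read, in 36 of the 36 libraries in which it was above 0. In the DMH, Pmch came out whole in 1 of 11 libraries and Parpbp likewise in 1 of 11, but their sum was whole in 11 of 11. Over all libraries the sum was whole in 41 of 41, and Pmch alone and Parpbp alone were each whole in 30 of 41. In the VMH each alone was whole in 10 of 11, so that values that were not whole lay almost entirely in the DMH. Pmch held 30.1% to 36.8% of that sum across the DMH libraries, with a median of 34.4%. The split was thus close to constant there while the sum ranged from 403.5 to 2095 CPM. In the VMH the share was 18.6% to 38.2%, with a median of 36.4%, so a share of this size was not particular to the DMH. Values that were not whole do not tell how many reads were divided. DMH-125, in which Pmch and Parpbp were each whole, had a share of 36.8%. The deposited Pmch value in the DMH, and possibly in the VMH, may be a part of the reads at its locus, but this was not tested. The strand of those reads is not known. Levels and the fasting change in the DMH are therefore also given for the sum, as are other results where the sum changes them.

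**Figure D1:**
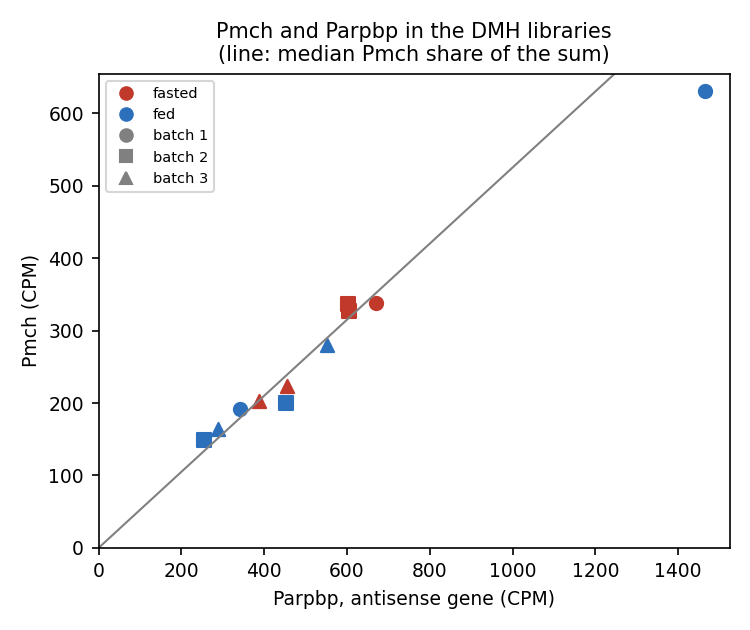
Pmch (vertical axis, CPM) against the antisense gene Parpbp (horizontal axis, CPM) in the 11 DMH libraries, coloured by state and shaped by batch, with a line at the median Pmch share of 34.4%. The libraries lie near the line from 148.6 CPM of Pmch upwards, and the fed library DMH-111 stands alone at 630.9 CPM of Pmch.

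Hcrt was found mainly in the DMH captures. Its mean level was 112 ± 63.7 CPM in the DMH (SD, n = 11), against 2.21 ± 3.45 CPM in the VMH (n = 11), 1.90 ± 3.59 CPM in the ARC (n = 9) and 0.635 ± 0.535 CPM in the PVN (n = 10). The lowest DMH library, at 46.7 CPM, lay above the highest library of any other nucleus, at 11.9 CPM. In the other nuclei Hcrt was close to the limit of detection. A level of 3 reads corresponds to 0.364 to 1.55 CPM, depending on depth, and Hcrt was at or under it in 6 of 9 ARC, 6 of 10 PVN and 6 of 11 VMH libraries.

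Pmch was the more abundant of the pair in the DMH and was also present in the VMH. Its mean was 277 ± 136 CPM in the DMH (SD, n = 11) and 28.3 ± 18.9 CPM in the VMH (n = 11), where single libraries ran from 5.67 to 75.9 CPM. In the ARC it averaged 0.932 ± 0.572 CPM (n = 9) and in the PVN 1.12 ± 0.838 CPM (n = 10). The DMH and the VMH did not overlap, with 148.6 CPM in the lowest DMH library, and neither did the VMH and the remaining nuclei, in which the highest library held 3.18 CPM. Since Hcrt and Pmch have the same exonic length, their CPM can be compared per length. On that scale Pmch, as deposited, was at 369 ± 182 CPM per kilobase in the DMH (SD, n = 11), Hcrt at 150 ± 85.1 and Parpbp at 154 ± 92.3. Within a DMH library the deposited Pmch level was 1.26 to 4.09 times that of Hcrt, with a median of 2.71. It exceeded Hcrt in each of the 11. The sum of Pmch and Parpbp averaged 828 ± 467 CPM in the DMH (SD, n = 11) and 81.9 ± 49.7 CPM in the VMH (n = 11). In the ARC that sum averaged 5.14 ± 4.62 CPM (n = 9) and in the PVN 4.27 ± 2.21 CPM (n = 10). By the sum the ratio to Hcrt would be larger, so its size depends on how the reads were assigned.

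**Figure D2:**
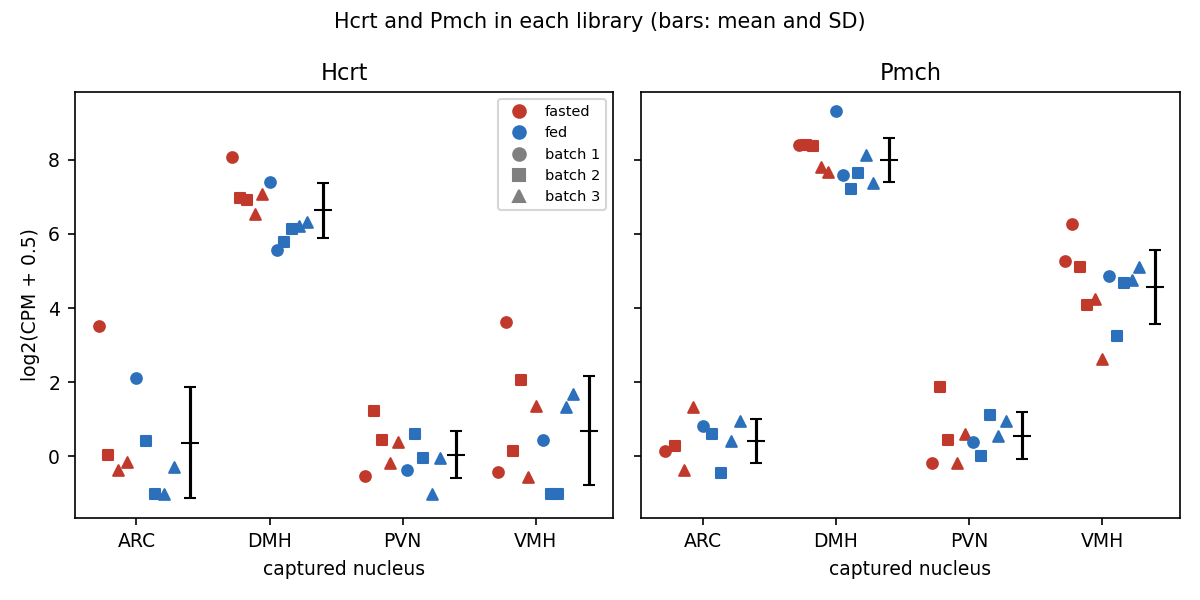
Level of Hcrt (left) and Pmch (right) as log2(CPM + 0.5) in each of the 41 libraries, by nucleus on the horizontal axis, coloured by state and shaped by batch, with bars at the mean and SD of all libraries of a nucleus. The DMH libraries stand above those of every other nucleus for both genes, and Pmch is at an intermediate level in the VMH, from 5.67 to 75.9 CPM.

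The differences between nuclei were tested with limma on log2(CPM + 0.5), with each mouse as a block. The DMH exceeded the mean of the other nuclei by a log2 difference of 6.31 ± 0.34 for Hcrt (SE, adjusted p = 2.73e-18) and of 6.21 ± 0.25 for Pmch (adjusted p = 2.47e-22). Of 10121 genes tested, 192 or 1.90% were called higher in the DMH, and among them these genes held ranks 2 and 3 by the size of the difference. Parpbp came next, at 6.01 ± 0.29. Every one of the 10 mice with a DMH and another library had more Hcrt and more Pmch in the DMH, and an exact 2-sided sign-flip test over mice gave p = 0.00195 for either gene, the smallest it can give. Only 7 of the 10121 genes, or 0.0692%, had every DMH library above every other library. They were Hcrt, Pmch, Parpbp, the RFamide peptide gene Npvf, the nuclear receptor gene Rorb, the vesicle gene Synpr and the neuropeptide S receptor gene Npsr1, of which Rorb, Synpr and Npsr1 were picked out after their values were seen.

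Taken nucleus by nucleus, Pmch set the VMH apart, while Hcrt was too close to the floor in each other nucleus for its differences to be ranked. The log2 difference of Hcrt in the DMH was 6.31 ± 0.43 against the ARC, 6.69 ± 0.42 against the PVN and 5.93 ± 0.42 against the VMH. For Pmch these differences were 7.62 ± 0.32, 7.47 ± 0.31 and 3.53 ± 0.31. All 6 passed the threshold, with adjusted p of at most 5.88e-15 for Hcrt and 2.95e-12 for Pmch in limma, where 3.28%, 3.84% and 3.85% of all genes were called higher in the DMH than in the ARC, PVN and VMH. Because Hcrt was near 0 elsewhere, its difference from the mean of the other nuclei moved with the pseudocount, from 5.13 with 2 to 7.18 with 0.1. The order below the DMH was compared within mice in 6 exact sign-flip tests added after the levels were seen. Pmch was higher in the VMH than in the ARC in 9 of 9 mice, by a log2 difference of 4.13 ± 1.41 (SD, exact p = 0.00391, 0.0117 after Benjamini-Hochberg adjustment), and higher than in the PVN in 10 of 10, by 3.94 ± 1.15 (exact p = 0.00195, adjusted 0.0117). No mean difference within mice was detected for Pmch between the ARC and the PVN, nor for Hcrt between any pair of these nuclei (exact sign-flip p from 0.217 to 0.594).

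Hcrt reads outside the DMH were most numerous in one mouse. Fasted mouse 86, which had the highest Hcrt level in the DMH, also had the highest in the ARC, at 10.9 CPM or 36 reads, and in the VMH, at 11.9 CPM or 39 reads. Its PVN library held 0.189 CPM, a single read. This mouse also had the highest Pmch level of the VMH, but 0.608 CPM of Pmch, or 2 reads, in the ARC. The sum of Pmch and Parpbp was highest in the same library of the ARC, at 16.7 CPM or 55 reads, with 6.84 CPM in the next, and nearly all of it was assigned to Parpbp, at 16.1 CPM. In the VMH library of mouse 86, Hcrt and Pmch were thus both high. In its ARC library Pmch held 3.64% of that sum, against 30.1% to 36.8% across the DMH libraries. The sum therefore does not show that Pmch was high in that ARC library. Where its Parpbp reads lay along that gene was not tested.

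The label of the captures was checked against genes known for each nucleus. Of 7 genes listed for the DMH, 5 were measured and 4 were called higher there. They were Npvf by a log2 difference of 6.56 ± 0.29, the orphan receptor gene Gpr50 by 4.70 ± 0.28, the peptide gene Cck by 2.94 ± 0.40 and the receptor gene Brs3 by 1.57 ± 0.36, which was not called against the ARC alone (0.31 ± 0.46, adjusted p = 0.742), while the leptin receptor gene Lepr was at 0.35 ± 0.26 and was called only against the PVN (1.62 ± 0.31). The median over the 5 was 2.94, against 0.02 over all genes. The markers of other nuclei were each called lower in the DMH than in their own nucleus. Against the ARC, Npy differed by -7.30 ± 0.34 and Crabp1 by -6.22 ± 0.39, against the VMH Fezf1 by -5.02 ± 0.31 and Sox14 by -1.72 ± 0.40, and against the PVN Avp by -8.52 ± 0.34 and Crh by -4.01 ± 0.37. Some were called higher in the DMH than in a nucleus they do not mark: Crabp1 (1.30 against the PVN and 1.29 against the VMH), Fezf1 (2.16 against the ARC), Sox14 (2.47 against the PVN) and Crh (1.70 against the ARC and 1.72 against the VMH). Of 7 myelin, 3 astrocyte, 6 microglia and 4 vessel markers measured, none was called against the mean of the other nuclei. Against single nuclei, Mobp, Mag and Agt were called higher than in the ARC (1.22, 1.14 and 1.43), Kdr, Cdh5 and Cldn5 lower than in the PVN (-1.53, -1.39 and -1.24) and Opalin lower than in the VMH (-1.53).

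Of the other genes listed for the lateral hypothalamus and its peptide neurons, 8 were measured and 2 were called higher in the DMH than in the mean of the other nuclei, where 1.90% of all genes were. Of 8 genes listed for orexin neurons, 3 were measured, with a median log2 difference of 0.01, and none was called higher than in the mean of the other nuclei. Nptx2, a pentraxin gene, differed by 0.56 ± 0.29, the Notch ligand gene Dner by 0.01 ± 0.07 and the glutamate transporter gene Slc17a6 by -0.61 ± 0.07. The last passed the p-value threshold (limma adjusted p = 3.51e-08) but not the fold threshold. Against single nuclei, Nptx2 was called higher than in the PVN (2.72 ± 0.36) and lower than in the VMH (-1.79 ± 0.36), and Slc17a6 lower than in the VMH (-1.65 ± 0.09). Of 7 genes listed for MCH neurons, 2 were measured, with a median of 1.29. Gad1, which encodes a GABA-synthesising enzyme, was higher in the DMH by 2.65 ± 0.13 (adjusted p = 1.48e-19), but against the ARC alone the difference was 0.10 ± 0.17 (adjusted p = 0.774), and the granin gene Scg2 differed by -0.07 ± 0.05. Of 12 other lateral hypothalamic and zona incerta genes, 3 were measured, of which the transcription factor gene Foxp2 was called higher than the mean of the other nuclei by 1.15 ± 0.22 but was at -0.72 ± 0.27 against the PVN (adjusted p = 0.0732), and the tachykinin gene Tac1 and the cerebellin gene Cbln1 were not, and the median was -0.12. Cbln1 was called higher than in the ARC (1.62 ± 0.20) and lower than in the VMH (-2.36 ± 0.19). The other members of these lists, such as Cartpt and Qrfp, were not analysed here.

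The receptors of orexin and MCH were expressed at low levels and none of the 3 was called higher in the DMH than in the mean of the other nuclei. In DMH libraries Hcrtr1 was at 2.38 ± 1.98 CPM (SD, n = 11), Hcrtr2 at 8.85 ± 3.24 CPM and Mchr1 at 8.24 ± 4.10 CPM. Against the mean of the other nuclei, Hcrtr1 differed by a log2 value of 0.17 ± 0.37, Hcrtr2 by -0.64 ± 0.22 (adjusted p = 0.0561) and Mchr1 by -0.71 ± 0.27 (adjusted p = 0.0859). Hcrtr2 and Mchr1 thus passed the p-value threshold of 0.1 but stayed under the log2 difference of 1. Hcrtr1 was lower in the DMH than in the VMH by 1.57 ± 0.45 on the log2 scale (adjusted p = 0.0101) and higher than in the ARC by 1.18 ± 0.47 (adjusted p = 0.0909). The ARC mean of Hcrtr1 was 0.773 ± 0.773 CPM (SD, n = 9), near the floor of 3 reads. Hcrtr2 and Mchr1 were not called against any single nucleus. Unlike the peptide genes, none of the 3 receptors had its highest mean level in the DMH. Kcnh4, the neighbour of Hcrt, differed from the mean of the other nuclei by 0.59 ± 0.33 (adjusted p = 0.274). Against single nuclei, Kcnh4 was called higher in the DMH than in the VMH (1.41 ± 0.40, limma adjusted p = 0.00822). It was not called against the ARC (-0.16 ± 0.41) or the PVN (0.53 ± 0.40).

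Across the 41 libraries, genes whose pattern was most like that of Hcrt included Npvf, with a Pearson r of 0.89 on log2(CPM + 0.5), Parpbp with 0.84, Pmch with 0.83 and Cntnap4 with 0.73. Those most like Pmch were Parpbp with 0.97, Npvf with 0.86, Hcrt with 0.83, and BC030499 and ENSMUSG00000090828, both with 0.83. These values describe the 7690 genes that averaged 5 CPM or more in the DMH. The libraries share mice and fall into nuclei, so such an r mostly restates the difference between nuclei.

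Within the DMH, Hcrt and Pmch tended to be high in the same libraries. The 4 libraries with most Pmch, DMH-111, DMH-86, DMH-100 and DMH-101, were among the 5 with most Hcrt, and the fed library DMH-125 was lowest for Pmch and next to lowest for Hcrt. Over the 11 libraries Pearson's r was 0.70 (permutation p = 0.0155, 0.155 after adjustment over 10 correlations) and Spearman's rho was 0.80 (permutation p = 0.00460, adjusted 0.0460). The rank correlation passed 0.05 after adjustment and Pearson's r did not. These values pool fasted and fed libraries, so a difference between states shared by both genes would enter them. Of the libraries named, DMH-86, DMH-100 and DMH-101 were fasted. Leaving out the 2 libraries farthest from the median of Hcrt, DMH-86 and DMH-92, gave an r of 0.77. With batch means removed r was 0.67, and in batches 2 and 3 alone it was 0.63 (8 libraries, permutation p = 0.101). This covariation was not particular to the pair: ranked by r with Hcrt among 7690 genes, Pmch was within the top 1.63%, and with batch means removed within the top 4.62%.

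**Figure D3:**
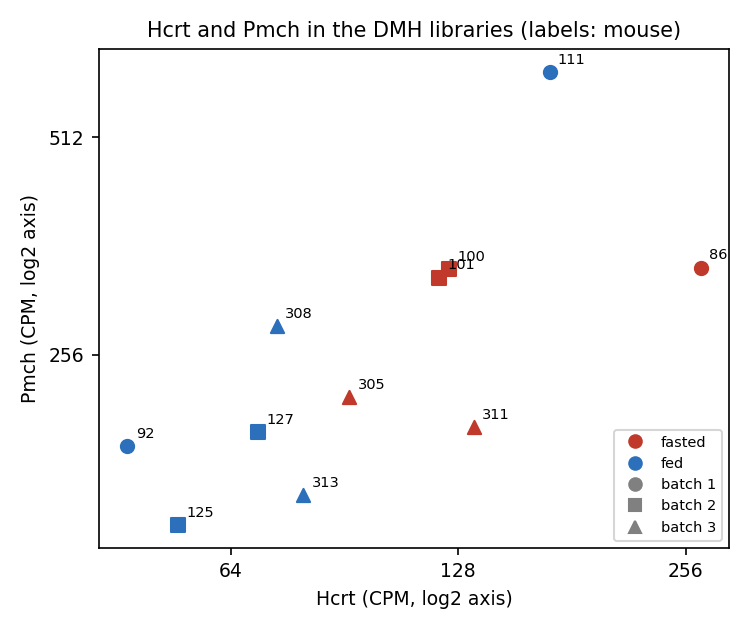
Pmch (vertical axis, CPM) against Hcrt (horizontal axis, CPM), both on log2 axes, in the 11 DMH libraries, labelled by mouse, coloured by state and shaped by batch. Libraries with more Hcrt tended to have more Pmch (r = 0.70), with DMH-86 highest for Hcrt at 268 CPM and DMH-111 highest for Pmch at 630.9 CPM.

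In the other nuclei, where both genes were near the floor or Hcrt was, the correlation was 0.12 in the ARC (9 libraries, exact permutation p = 0.766), 0.50 in the PVN (10 libraries, permutation p = 0.139) and 0.34 in the VMH (11 libraries, permutation p = 0.300). In the DMH, no relation of either gene to Npvf was detected, with an r of -0.15 for Hcrt (permutation p = 0.659) and of 0.02 for Pmch (permutation p = 0.941). Nor was one detected to the summed level of 7 myelin markers, with -0.08 for Hcrt (permutation p = 0.824) and 0.22 for Pmch (permutation p = 0.509). Both tended to be lower in deeper libraries, with an r of -0.57 between Hcrt and log2 depth (permutation p = 0.0674, adjusted 0.337) and of -0.51 for Pmch (permutation p = 0.112, adjusted 0.348), neither past the threshold. The part of depth in the covariation was not tested.

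The genes most like Hcrt within the DMH, after batch means were removed, were Pgr15l, A2ml1, U2af1l4, Zfp869 and Prpf4, with r from 0.93 to 0.95. For Pmch they were Parpbp, with an r of 0.98, and Rpl6, Tmem168, Eif2b4 and Scn1a, with r from 0.93 to 0.95. None of these genes was on a list of hypothalamic genes used here, and they are the highest of 7690 values from 11 libraries.

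Whether fasting changed the peptide genes was asked within the DMH. Among fasted libraries, Hcrt was at 268 CPM in DMH-86, 124.6 in DMH-100, 120.6 in DMH-101, 91.9 in DMH-305 and 134.3 in DMH-311, with a mean of 148 ± 69.0 CPM (SD, n = 5). The fed libraries had a mean of 82.2 ± 44.3 CPM (n = 6), with a lowest value of 46.7 in DMH-92, a median of 71.6 and a highest of 169.1 in DMH-111. DMH-111 was the only fed library within the range of the fasted ones, so the groups overlapped over all batches. Within each of the 3 batches, every fasted library had more Hcrt than every fed one, which was the case for 117 of 9751 genes or 1.20%. The fasted and fed means were 268 and 107.9 CPM in batch 1, 122.6 and 62.0 in batch 2, and 113.1 and 76.7 in batch 3. Taken instead as means of log2(CPM + 0.5), fasted and fed libraries differed by 1.59, 0.99 and 0.53.

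The fasting change of Hcrt in the DMH did not pass the threshold over all genes. With batch as a covariate it was a log2 difference of 0.97 ± 0.24 (SE, 95% interval 0.46 to 1.47), with a limma adjusted p of 0.497, at rank 11 of 9751 by p-value. In that fit 1 gene, or 0.0103%, was called and 646 had an unadjusted p under 0.05. An exact 2-sided permutation of Hcrt alone, with labels exchanged within batches, gave p = 0.0370, since 4 of the 108 arrangements had a difference as large. Without batch 1 the difference was 0.76 ± 0.18 (adjusted p = 0.632), and the exact test gave p = 0.0556, with 2 of 36 arrangements as large. With equal groups in each batch, every arrangement has a mirror image of equal size, so this is the smallest p that test can give. With log2 Npvf as a covariate it was 1.09 ± 0.19 and passed the threshold (adjusted p = 0.0627). Over the other settings, leave-one-out fits included, the adjusted p was 0.165 or higher.

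**Figure D4:**
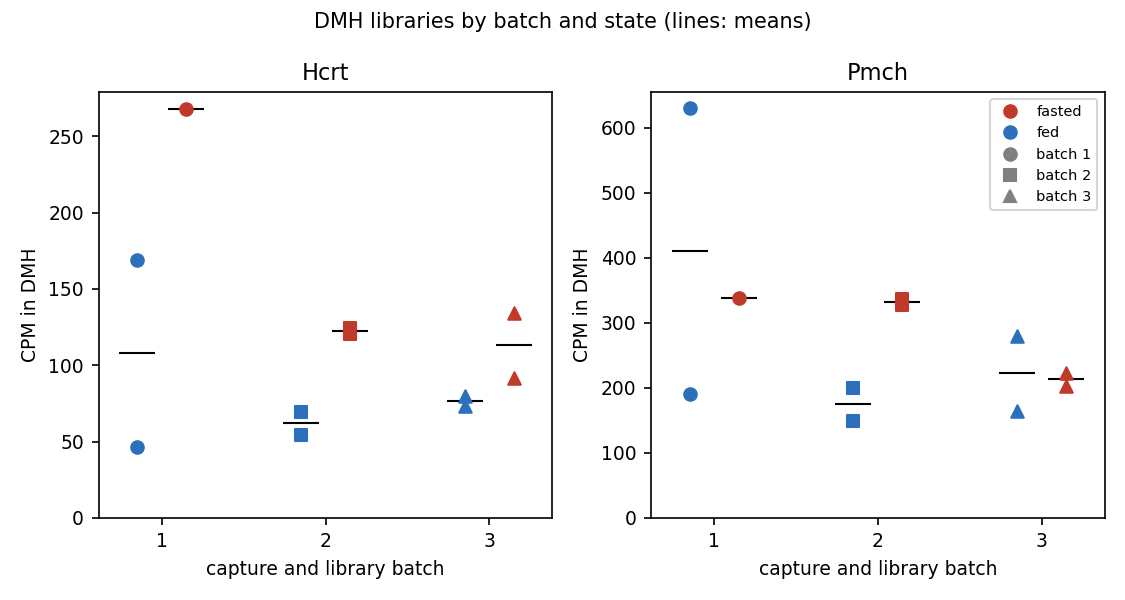
Hcrt (left) and Pmch (right) in CPM in the DMH libraries, by capture and library batch on the horizontal axis, fed in blue and fasted in red, with lines at the means. For Hcrt the fasted libraries lie above the fed ones in each batch, for example at 120.6 and 124.6 against 54.5 and 69.6 CPM in batch 2, and for Pmch they do so in batch 2 only.

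Some other measurements differed between the fasted and the fed libraries of the DMH. The fasted ones were sequenced to 2.65 to 4.63 M reads, the fed ones to 2.93 to 8.23 M. With log2 depth as a covariate the change of Hcrt was 1.00 ± 0.47 (adjusted p = 0.692), so that the estimate stayed near 1 with a larger error. The summed level of the PVN markers measured, Avp and Crh, was 4.53 to 7.51 CPM in fasted and 1.04 to 3.77 CPM in fed libraries. These levels were near the floor and far under those of Hcrt. Neither gene was called in limma (Avp 0.63 ± 0.56, adjusted p = 0.890, and Crh 1.86 ± 0.62, adjusted p = 0.695). The vessel markers summed to 49.8 to 96.2 CPM in fasted and 76.0 to 127.2 CPM in fed libraries, with overlap. The astrocyte markers summed to 197.1 to 331.4 CPM in fasted and 172.6 to 255.6 CPM in fed libraries, highest in DMH-86. Among them Agt differed by 0.56 ± 0.16 and was not called (limma adjusted p = 0.569). The microglia markers summed to 64.0 to 128.7 CPM in fasted and 52.4 to 177.2 CPM in fed libraries. The myelin markers summed to 551 to 1039 CPM in fasted and 455 to 1587 CPM in fed libraries, with medians of 786.6 and 778.5 CPM and 0 of 7 called. The library with least Hcrt, DMH-92 of the fed group, had the most Npvf, at 225 CPM, and the highest myelin sum. Its ARC markers, Npy and Crabp1, summed to 41.5 CPM, against 1.36 to 9.44 CPM in the other DMH libraries and at least 323 CPM in the ARC. Without this library the change of Hcrt was 0.74 ± 0.15 (adjusted p = 0.165). The part of these measures in the Hcrt values was not tested beyond the depth and Npvf covariates and the correlations given above.

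No fasting change of Pmch was detected in the DMH. Among fasted libraries it was at 337.8 CPM in DMH-86, 336.1 in DMH-100, 327.2 in DMH-101, 223.3 in DMH-305 and 203.1 in DMH-311 (mean 285 ± 66.5, SD, n = 5). The fed libraries ran from 148.6 in DMH-125 to 630.9 in DMH-111, with a median of 195.5 and a mean of 269 ± 183 CPM (n = 6). The groups overlapped, and the highest and the lowest library were both fed. The log2 difference was 0.34 ± 0.23 (SE, 95% interval -0.14 to 0.82, limma adjusted p = 0.848). It was 0.54 ± 0.17 without DMH-111 (adjusted p = 0.633) and 0.19 without DMH-92 or without DMH-125 (adjusted p = 0.900 and 0.897). In the exact test, 44 of the 108 exact arrangements were as large (exact p = 0.407). For the sum of Pmch and Parpbp it was 0.32 (exact p = 0.454). By batch, fasted and fed Pmch means were 338 and 411 CPM, 332 and 174 CPM, and 213 and 222 CPM, so that fasted libraries lay above fed ones in batch 2 only. The change of Pmch relative to Hcrt was a log2 difference of -0.63, with an unadjusted exact p of 0.0648, not under 0.05.

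In the other nuclei no fasting change of either gene was called. In the VMH, limma gave 0.66 ± 0.78 for Hcrt (adjusted p = 0.936) and -0.10 ± 0.40 for Pmch (adjusted p = 0.986). Fasted minus fed was positive in batches 1 and 2 and negative in batch 3 for both genes. In that fit 2 of 9594 genes or 0.0208% were called. Pmch in the VMH ranged from 5.67 to 75.9 CPM in fasted and from 8.98 to 33.7 CPM in fed libraries, so the fed range lay within the fasted one. In the ARC the value for Pmch was -0.18 ± 0.68 (adjusted p = 0.961), with 17 of 9654 genes or 0.176% called, and Hcrt did not pass the filter on low values. In the PVN neither gene passed it. A model over all nuclei with the mouse as a block tested whether the fasting change in the DMH differed from that in the others. The difference was -0.01 ± 0.71 for Hcrt (95% interval -1.44 to 1.42) and 0.29 ± 0.52 for Pmch (-0.76 to 1.34). In that limma model 0 of 10121 genes, or 0%, were called, and 586 had an unadjusted p under 0.05. Hcrt levels outside the DMH rest on few reads, and a fasting change particular to the DMH was not shown.

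The receptors were also compared between states in the DMH, and 0 of the 3 were called by limma. Since 1 of 9751 genes, or 0.0103%, was called in that fit, a lack of calls says little about these or the listed genes below. Mchr1 differed by 0.91 ± 0.50 (adjusted p = 0.798), Hcrtr1 by 0.60 ± 0.60 (adjusted p = 0.896) and Hcrtr2 by -0.28 ± 0.40 (adjusted p = 0.930), and none of the 3 had an unadjusted p under 0.05. No member of the lists for orexin neurons, MCH neurons, other lateral hypothalamic genes or the DMH was called either, and of these none had an unadjusted p under 0.05. Npvf, which likewise had every DMH library above every other library, differed between states by 0.17 ± 0.25 (adjusted p = 0.940).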

How the data were processed

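RNA from 43 laser-captured samples is described by the labels, and 41 were analysed. The other 2, PVN of mice 85 and 92, were not analysed here, and 2 columns that matched no sample stayed unused. Those columns name the ARC of the same mice, so which nucleus they hold is not known. VMH and DMH libraries of these mice (VMH-85 and DMH-92) were used as labelled. The authors' methods and the labels give SPIA amplification (Ovation RNA-Seq System V2) and single-end sequencing, and state no use of strand. TopHat2 2.0.11, Cufflinks 2.2.1, CASAVA 1.7, edgeR and limma are named in the submitters' processing notes, with GRCm38. Outlier libraries had been removed by the authors. The program that counted reads is not given in the sources used here.

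The authors deposited CPM per Ensembl gene, and 9891 of 10127 identifiers were matched to a symbol. Depth was read from the step between low values, of which 97.7% to 98.7% were whole multiples (tolerance 0.1 read), and counts as such were not recovered because some values lay far under 1 read. A floor of 3 reads covers counting error only, and amplified reads are not independent molecules.

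Tests were made with limma 3.58.1 in R 4.3.3 on log2(CPM + 0.5), which understates changes of low genes. Genes were kept at 1 CPM or more in as many libraries as the smallest group compared. Benjamini-Hochberg adjusted p was taken over all genes tested, and the threshold was 0.1, with a log2 difference of at least 1 between nuclei. Comparisons of nuclei used the mouse as a block, since mouse numbers in the titles name the animal. Mice 85 and 92 each had 1 library analysed and added nothing to those contrasts. After group means and batch were removed, libraries of the same mouse correlated across genes with a median r of -0.05 (57 pairs), and those of different mice with 0.01 (763 pairs). Fasted and fed libraries were compared per nucleus with batch as a covariate. Exact permutation tests used single values per mouse, and correlations used 100000 permutations, or an exact enumeration under 10 libraries. The fits were tested on simulated data. Sequences were read from GRCm38 through GENCODE M21.

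The members, gene lists and tests were chosen with earlier results of these data known. The genes named are the members, genes that overlap or adjoin them, list members, and the 5 genes most correlated with each member, of which 1 is not reported here. Rorb, Synpr and Npsr1 are named beside them as the remaining genes without overlap between the DMH and other libraries, chosen after their values were seen. Sums of Pmch and Parpbp, fits without batch 1 and the tests among ARC, PVN and VMH were added after the values were seen.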

Additional observations from a re-analysis of the deposited data

Results flagged for a closer look

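Of 16 groups of 4 to 6 libraries, 8 for each gene, 7 held a library that stood apart from the rest of its group by Dixon's 95% criterion on CPM. The criterion sets apart about 1 group in 20 by chance where values are near normal, and 6 of the 7 came from mice of batch 1, so the groups are not independent. On log2(CPM + 0.5), a scale added after the values were seen, 2 of the 16 groups did, ARC-86 for Hcrt on the high side and VMH-125 of the fed group for Pmch on the low side, at 8.98 CPM. On CPM, all 7 stood apart on the high side. For Hcrt these were fasted mouse 86 in the DMH at 268 CPM, where the next library was at 134.3 CPM, in the ARC at 10.9 CPM, where the next was at 0.537 CPM, and in the VMH at 11.9 CPM, where the next was at 3.65 CPM. The fed libraries of another mouse stood apart for Hcrt, DMH-111 at 169.1 against 79.8 CPM and ARC-111 at 3.80 against 0.847 CPM. For Pmch, DMH-111 stood apart at 630.9 against 280.4 CPM, and the fasted library PVN-100 at 3.18 CPM or 12 reads against 1.01 CPM. DMH-86 and DMH-111 both belonged to batch 1 and were the shallowest libraries of that nucleus, at 2.65 and 2.93 M reads (M, mega). The third DMH library of batch 1, the fed DMH-92, had the lowest Hcrt level of all 11, at 46.7 CPM.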

How the results depend on the processing

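The higher level of Hcrt and Pmch in the DMH kept its direction and its side of the threshold in every alternative with a test, against the other nuclei together and against each of them: pseudocounts of 0.1 and 2, no filter and a filter at 5 CPM, median-ratio scaling, library weights, fed or fasted libraries alone, each mouse left out, and the sum of Pmch and Parpbp. Without the mouse as a replicate block the log2 difference was 6.22 for Hcrt and 6.12 for Pmch, and with it as a random effect 6.23 and 6.13. No call on either gene depended on this pairing. In batch 1 alone, where no test was made, Hcrt differed by 4.93 against the ARC and 8.19 against the PVN, and Pmch by 6.80 against the other nuclei and 8.75 against the PVN.

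The fasting change of Hcrt in the DMH was 0.74 to 1.11 with each library left out (0.74 without DMH-92, 1.11 without DMH-111, both fed), 1.59, 0.99 and 0.53 in batches 1, 2 and 3 alone and 1.09 with log2 Npvf as a covariate, the one setting that passed the threshold. That of Pmch was 0.19 to 0.54 with each library left out and -0.040, 0.94 and -0.0088 in the batches alone. In the VMH, the change of Pmch was -0.43 to 0.33 with each library left out, 0.067 without a batch term and 0.89, 0.64 and -1.50 in batches 1, 2 and 3 alone, where that of Hcrt was 1.15, 2.10 and -1.11. The sign of either gene in the VMH differed between batches. That of Pmch is not settled there, nor in the ARC, with -0.48 to 0.13 over the 6 libraries whose removal gave a value and 0.82 for the sum with Parpbp. Without ARC-111, ARC-125 or ARC-313, all fed, Pmch did not pass the filter on low values. The difference of the fasting change between the DMH and the other nuclei ran from -0.56 to 0.41 for Hcrt and changed sign: -0.56 with a pseudocount of 0.1, 0.41 without the replicate block, 0.32 with a pseudocount of 2, 0.0075 with median-ratio scaling and -0.16 to 0.15 with each mouse left out. For the sum of Pmch and Parpbp it was -0.058. The cause of these shifts was not tested. The correlation of Hcrt with Pmch in the DMH was 0.65 to 0.76 with each library left out, and lost its unadjusted threshold on linear CPM, at 0.58 (permutation p = 0.0833), and in batches 2 and 3 only, at 0.63.

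Among all genes, calls higher in the DMH fell from 192 to 96 with a pseudocount of 2 and to 113 in fasted libraries alone. With that pseudocount they fell from 332 to 181 against the ARC, from 389 to 199 against the PVN and from 390 to 225 against the VMH. Fasting calls in the DMH numbered 0 to 3. Those in the VMH numbered 1 to 5 and in the ARC 0 to 24. Depth limits Hcrt outside the DMH most, where many libraries held 3 reads or fewer.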
